A study of Bos taurus with 40 samples.

Results

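The change from feed restriction to full feeding was followed within 10 restricted Holstein-Friesian bulls, each biopsied in muscle at both times, giving 20 of the 40 libraries of the study. The members were the libraries titled as restricted bulls 1 to 10 at time points 1 and 2, paired by the number in the title. All bulls of the study were males of this dairy breed and ate a mixture of 70% concentrate and 30% grass silage. During period 1, of 125 days, the restricted bulls were fed a limited allowance aimed at gains of 0.6 kg daily. During period 2, of 55 days, their feed was no longer limited. Their first biopsy fell on day 120 of restriction and their second on day 15 of full feeding, 20 days apart. The other 20 libraries came from 10 control bulls with free access to feed throughout, biopsied on the same days. The labels give neither the age of the bulls nor the muscle sampled. Messenger RNA was sequenced and reads were counted per gene.

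Cattle that return to full feeding after a period of restriction are known to grow faster for a time than animals that were never restricted, which is called compensatory growth. In restricted mammals muscle is known to build less protein and store less fat, and feeding restores the insulin and growth factor signals that drive both. The comparison asks which transcripts of muscle move within an animal in the first days after feed is restored. The deposited files identify genes by Ensembl number, and 0 of their 24616 gene IDs could be paired with a symbol in the annotation table used here. Genes are therefore described by ID, level and behaviour, no role is given to any of them, and the labelled tissue was not checked against muscle markers.

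In units of 1000000, counts over genes were between 20.8 and 33.0 per restricted library, with a median of 25.7. The share of reads that fell outside genes, of gene, outside-gene and ambiguous reads together, was 10.0% to 16.7%. 3 libraries stood apart with under 12%: those of bulls 1 and 9 in restriction and of bull 10 after refeeding. These were also the only 3 restricted libraries whose library code began with the number 5 or 6. In the whole series 7 of the 8 libraries with those code numbers were under 12%, and no other library was. The labels do not say what the number stands for. A term for the libraries under 12% was therefore part of each fit across genes. The counts of called genes, of large changes and of calls by count level, and the changes of the genes named, were also taken from the 7 bulls without such a library. The counts of genes that moved alike in all bulls, that did not overlap, that had no count at 1 time or that differed between bulls were not. From restriction to refeeding, 4 of 5 library measures differed by less than the SD of the within-bull differences. The mean number of genes with a count went from 15190 to 15429, higher in 9 of 10 bulls, with an exact sign-flip p of 0.0137, or 0.0684 adjusted over 5 measures. Without bull 10 this adjusted p was 0.0195. The share of reads outside genes was 14.3% and 14.4% on average (exact p = 0.955).

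After 15 days of full feeding 4699 of 12753 genes tested had changed within the restricted bulls. They make up 36.8% of the genes tested. 2410 genes were higher (18.9%) and 2289 were lower (17.9%). Each call rests on the edgeR quasi-likelihood test with bull as a block and the library term, at a Benjamini-Hochberg adjusted p under 0.05. By itself this test does not separate refeeding from the time that passed between the biopsies. Most changes were small: 3254 of the called genes moved by less than 1.5-fold, and the median size was 0.42 log2 units, or 1.34-fold. From the 7 bulls without a library under 12%, 3698 genes were called, 3448 of them in the same direction as in all 10 bulls.

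Large increases outnumbered large decreases, mainly among genes with few counts. A change of 2-fold or more was seen in 245 genes that rose (1.92% of genes tested) and 136 that fell (1.07%). At 4-fold or more, 39 genes were higher and 14 lower. At 8-fold or more, 14 were higher and 0 lower. The 0 is a narrow miss: ENSBTAG00000003786, described below, fell 7.997-fold, and its log2 change was -3.05 with DESeq2. In the 7 bulls without a library under 12% the counts were 239 and 146 at 2-fold, 35 and 16 at 4-fold, and 13 and 0 at 8-fold, a comparison added after the data were seen. The 245 genes with a 2-fold rise were mostly scarce in restriction, with a median of 0.631 CPM (counts scaled to 1000000 per library) on day 120 and 1.77 CPM on day 15. The 136 genes with a 2-fold fall went from a median of 3.18 to 1.17 CPM. By mean CPM, 2-fold rises and falls numbered 110 and 49 under 1 CPM, and 105 and 62 from 1 to 10 CPM. From 10 to 100 CPM there were 22 and 22, from 100 to 1000 CPM 8 and 2, and from 1000 CPM 0 and 1. The SD of the within-bull log2 change had a median of 0.80 in the genes that rose and 0.74 in those that fell. Over all genes tested it was 0.43. These sets were not matched for level: their median mean CPM was 1.3 and 2.2, against 7.7 over all genes tested. Whether the larger SD went beyond that of other genes of such low level was not tested. No gene went from 0 counts in all 10 restriction libraries to a count in 8 or more refed libraries, or the reverse. Of the 24616 genes in the files, 23 had no count in restriction and a count in at least 5 refed libraries, and 4 showed the reverse. Mean gene counts were 25.2 in restriction and 26.9 after refeeding, in units of 1000000, and were higher in 7 of 10 bulls. Whether depth bears on these detections was not tested.

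**Figure D1:**
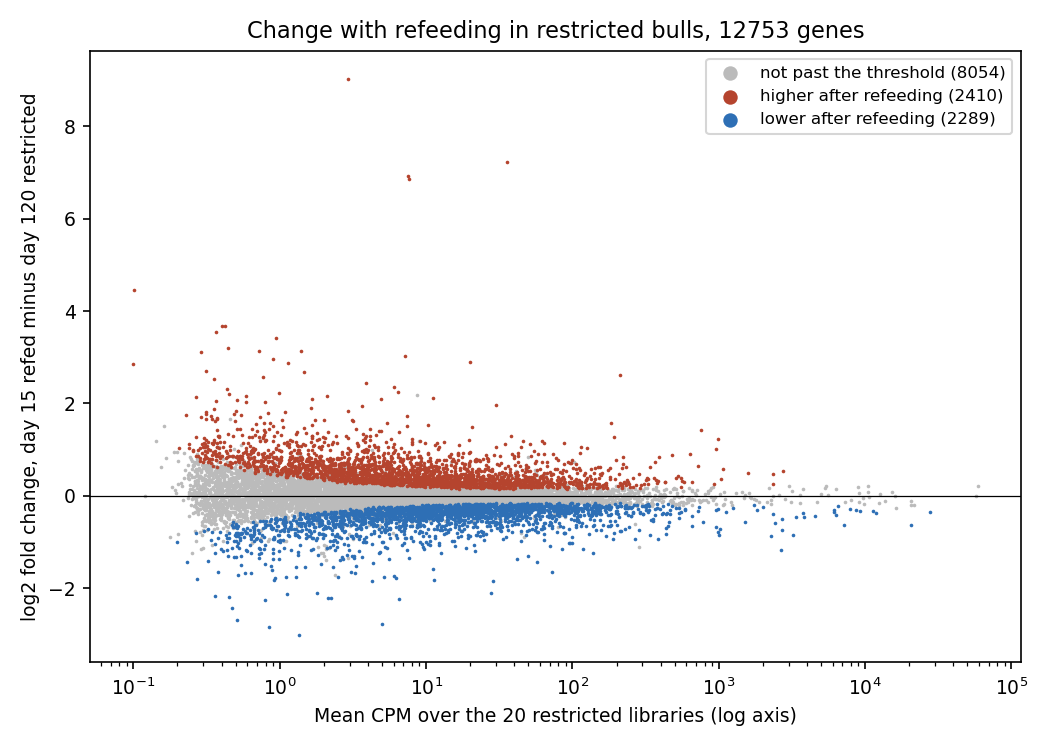
Fitted log2 fold change in restricted bulls (day 15 minus day 120, vertical axis) against mean CPM over the 20 restricted libraries (horizontal log axis), 1 point per gene tested. The 2410 genes called higher and 2289 called lower are coloured, and the largest rises, above 6 log2 units, have no counterpart among the falls.

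All 10 bulls moved the same way in 1098 genes tested (8.61%), with 570 higher (4.47%) and 528 lower (4.14%), and 1087 of these genes were called. Of the 39 genes called 4-fold or more higher, 33 were higher in all 10 bulls, and of the 14 called 4-fold or more lower, 12 were lower in all 10.

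Among called genes averaging 1 CPM or more, the largest rise shared by all 10 bulls was that of ENSBTAG00000038748. In restriction it lay between 0 and 1.99 CPM, with a median of 0.182 CPM, and 3 of 10 libraries held no count. After refeeding it lay between 4.36 and 232 CPM, with a median of 19.8 CPM. Every refed library was above every restriction library. Bulls 2, 7 and 8 were highest on day 15, at 232, 137.5 and 199 CPM, and bull 3 was lowest. The fit gave a log2 fold change of 7.22 ± 0.50 (SE) with an edgeR adjusted p of 1.36e-05, a value that depends on the prior count because 3 libraries were at 0. Between bulls the within-bull change ranged from 3.60 in bull 6 to 10.05 in bull 8 on the log2 scale with a prior count of 2.

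ENSBTAG00000026417 had the second largest rise. It held 1 to 6 counts in each restriction library, or 0.0385 to 0.266 CPM with a median of 0.0898 CPM. After refeeding it held 22 to 1433 counts, or 0.793 to 58.7 CPM with a median of 4.28 CPM. Again no refed library overlapped with restriction, and bulls 2, 7 and 8 were the highest of the 10. The log2 fold change came to 6.93 ± 0.32 (SE), with an edgeR adjusted p of 2.95e-08. The change within a bull was smallest in bull 6, at 2.45 log2 units, and largest in bull 8, at 7.56.

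The refed levels of these 2 genes followed each other closely from bull to bull. While the first spanned a 53.1-fold range over the 10 refed bulls and the second a 74.0-fold range, the ratio of their CPM stayed between 3.95 and 5.85, with a median of 5.23. Over the 10 refed libraries the correlation of log2 CPM was r = 0.996 by Pearson and rho = 1.0 by Spearman. The permutation p was 1e-05 for Pearson, the smallest that 100000 resamples can give, and 2e-05 for Spearman, or 2e-05 and 4e-05 adjusted over 2 relations. Without the 2 bulls farthest from the median r was 0.995, and without the library under 12% it was 0.997. In the 10 control libraries of day 15 the same ratio had a median of 5.14 and a range of 2.50 to 10.0, with r = 0.963 (permutation p = 9e-05, adjusted 9e-05) and rho = 0.915 (permutation p = 0.0006, adjusted 0.0006). There r was 0.990 in the 7 libraries that were not under 12%. The relation was examined after its values were seen. Whether reads of similar gene copies could be counted to both genes was not tested.

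The largest falls were smaller and more even. ENSBTAG00000003786 lay between 0.628 and 4.17 CPM in restriction, with a median of 2.26 CPM, and between 0.0946 and 0.579 CPM after refeeding, with a median of 0.247 CPM. All 10 refed libraries were below the lowest restriction library, that of bull 8. Its log2 fold change of -3.00 ± 0.25 (SE), a 7.997-fold fall, had an edgeR adjusted p of 4.06e-07. Within bulls the log2 change ran from -4.07 in bull 5 to -1.13 in bull 8. Bull 8, lowest in restriction at 17 counts, thus had the smallest fall of this gene and, with the prior count of 2, the largest rise of both genes above. For ENSBTAG00000038748 bull 1 came next at 9.74 log2 units, from 0 counts in restriction, so that rank depends on the prior count.

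ENSBTAG00000004860 went from 3.57 to 32.7 CPM in restriction, with a median of 6.23 CPM, to 0.441 to 2.23 CPM after refeeding, with a median of 1.08 CPM. Bull 10 was far above the others in restriction, at 32.7 CPM against 9.15 CPM in the next bull. Its refed value of 1.89 CPM lay within the range of the other bulls. The groups did not overlap. Its log2 fold change of -2.77 ± 0.16 (SE), a 6.84-fold fall, had an edgeR adjusted p of 1.24e-08, and within bulls the change ran from -4.06 in bull 10 to -1.47 in bull 9. Groups that did not overlap were rare among all genes: 73 (0.572%) had every refed library above every restriction library, and 70 (0.549%) every refed library below.

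**Figure D2:**
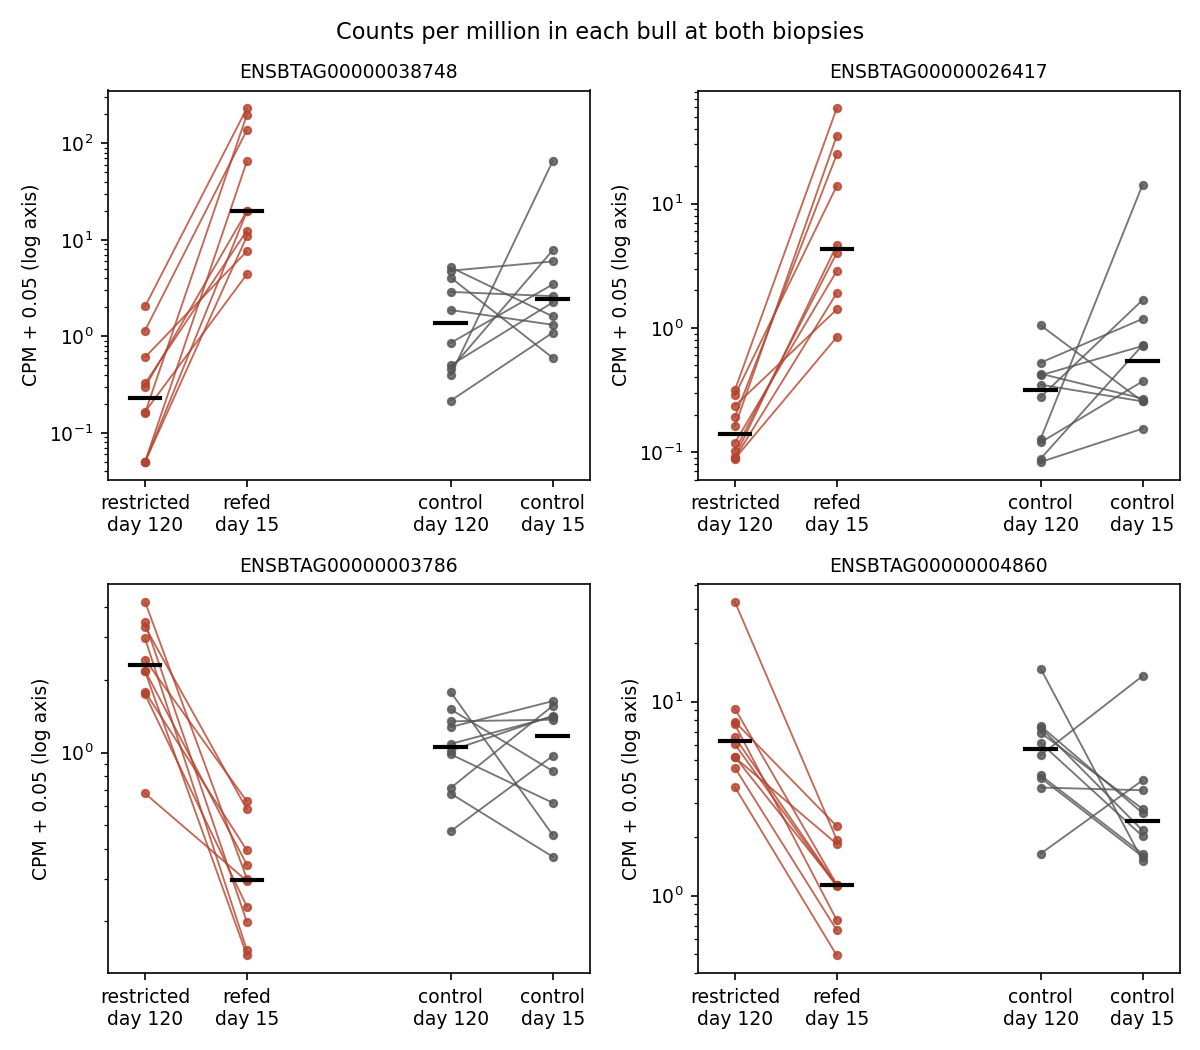
CPM plus 0.05 on a log axis for the 4 genes described, 1 line per bull from day 120 to day 15, restricted bulls in red and control bulls in grey, with black bars at group medians. All red lines rise in the upper panels and fall in the lower panels, which the choice of genes required. The genes were picked for large changes of the same direction in every restricted bull, which also favours the lack of overlap between refed and restriction libraries. Grey lines go both ways, but control bulls had no part in that choice. The contrast of red and grey lines is therefore not a test of a difference between the feeding groups.

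Genes that rose and genes that fell differed in how many reads they held. CPM is not scaled to gene length, so the classes here are of read counts and not of transcript number. Among 1834 genes with a mean under 1 CPM, 15.0% were called higher and 7.91% lower. Among 5312 genes of 1 to 10 CPM the shares were 21.0% and 15.7%. From 10 to 100 CPM they were 18.6% and 22.4% of 4741 genes, and from 100 to 1000 CPM 16.9% and 28.2% of 773 genes. Of the 93 genes with 1000 CPM or more, which held 63.5% of all counts, 6 were called higher and 30 lower. The median log2 change over all genes of a class ran from 0.12 in the lowest class to -0.12 in the highest. With total counts in place of TMM scaling the median of all genes moved from 0.01 to 0.09 and the called genes split into 3170 higher and 1540 lower, or 67.3% higher against 51.3%. Under total counts the direction of the calls turned in the class of 10 to 100 CPM, with 1272 higher and 691 lower, and in that of 100 to 1000 CPM, with 198 and 164. Upper quartile scaling turned the former as well, with 1019 and 969. Among the 93 most abundant genes lower calls still outnumbered higher ones under total counts, at 27 against 13, and the class medians fell from 0.20 in the lowest class to -0.05 in the highest. Low genes were also measured less precisely, with a median SE of 0.24 log2 units under 1 CPM and 0.07 from 10 to 100 CPM.

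**Figure D3:**
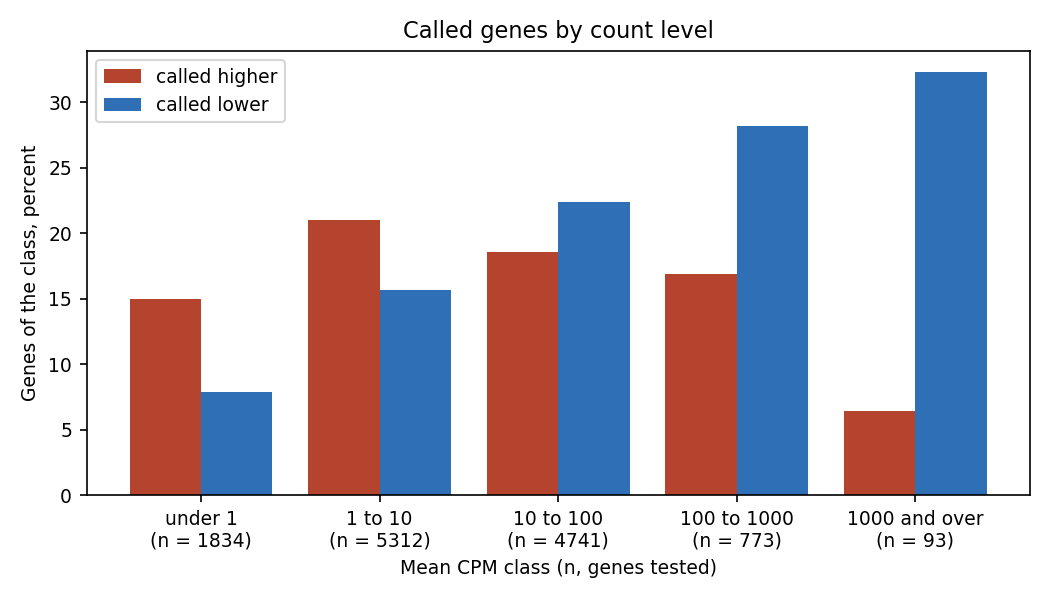
Percent of genes called higher (red) and lower (blue) after refeeding in 5 classes of mean CPM, with the number of genes tested in each class. Higher calls outnumber lower ones in the 2 classes under 10 CPM, and lower calls outnumber higher ones in the 3 classes above, of which that of 10 to 100 CPM turns under total count and upper quartile scaling and that of 100 to 1000 CPM under total count scaling.

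How alike the bulls were was described by leaving each out. Genes were called in the other 9 bulls (3741 to 4679 genes), and their direction was then read in the bull left out, with its library term, where it had one, taken from the other bulls. 76.5% to 94.1% of these genes moved the same way in the bull left out, with a median of 86.2%. Over all genes tested the share was 62.5% to 76.5%, with a median of 70.3%. Bulls 1 to 5 shared the direction of 89.5% to 94.1% of the called genes, and bulls 6 to 10 of 76.5% to 82.8%. Within each feeding group the bull numbers rise with the later number of the library code, which the labels do not explain, and whether that order bears on the split was not tested. For genes called higher the median was 85.5% and for genes called lower it was 86.5%.

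The size of the response differed between bulls as well. Across the called genes, the slope of the log2 changes of the bull left out on those of the other 9 was highest in bull 1, at 1.07, and lowest in bull 7, at 0.523, with a median of 0.792. In the genes called higher, the median change of the bull left out lay between 0.26 and 0.54 log2 units, and in those called lower between -0.52 and -0.23. Without the library term taken out, the shared direction of bulls 1 and 9 was lower, at 73.6% and 62.5% against 90.7% and 76.5%, and that of bull 10 was 78.1% against 77.5%.

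**Figure D4:**
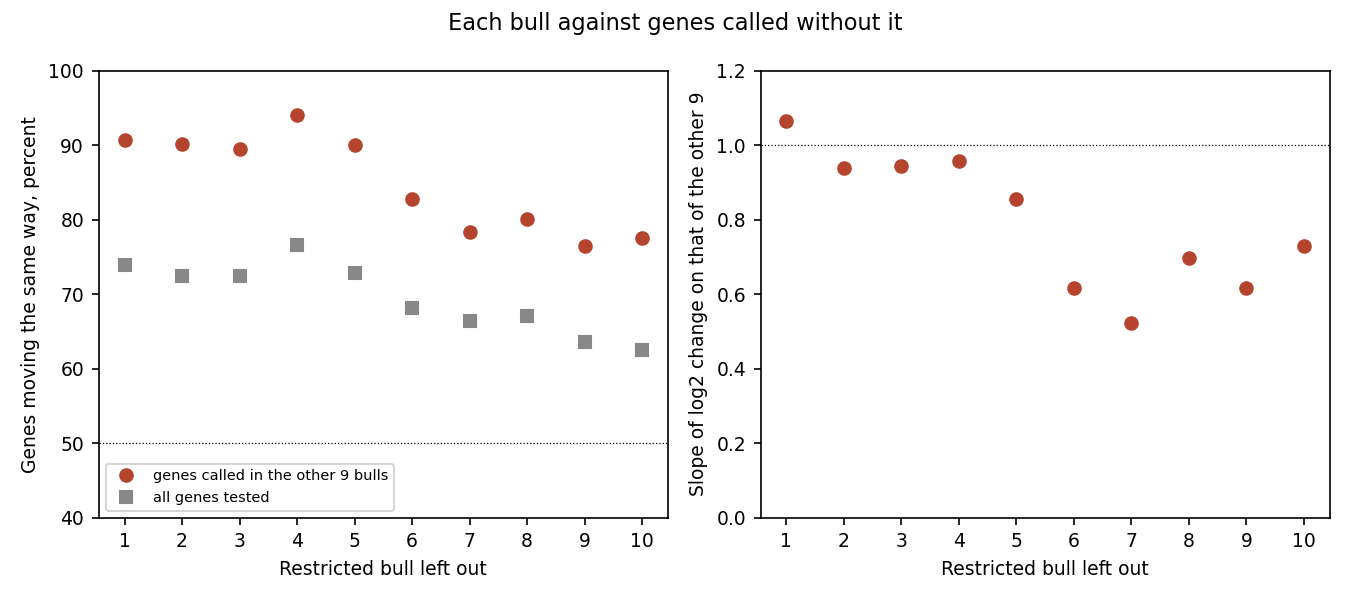
Left, percent of genes that moved the same way in each restricted bull as in the other 9, for genes called in those 9 (red circles, 76.5% to 94.1%) and for all genes tested (grey squares, 62.5% to 76.5%). Right, slope of the log2 changes of each bull on those of the other 9 over the called genes, from 0.523 in bull 7 to 1.07 in bull 1, with the dotted line at 1.

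The movement of reads was visible in the libraries themselves. Genes called lower without the bull in question fell from 26.5% to 32.5% of all gene counts in restriction (median 28.1%) to 20.2% to 27.6% after refeeding (median 23.3%), and did so in 10 of 10 bulls. Genes called higher went from a median of 5.60% to 8.10%, and rose in 9 of 10 bulls. The exception was bull 8, at 14.0% and 13.7%, where the most abundant of these genes alone held 6.25% of the counts in restriction. Without that gene the share in bull 8 went from 7.76% to 9.12%. In a tissue sample, fewer cells of a type and less RNA per cell cannot be told apart.

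Differences between individual bulls were present at both times. 654 genes (5.13%) differed in level between the 10 bulls by the edgeR quasi-likelihood test with time and the library term in the fit. Of these, 316, or 48.3%, were also called for a change between the biopsies, against 36.2% of the other genes and 36.8% of all genes tested. The sets were not matched for count level, and the share called for that change was 23% under 1 CPM and 45.1% from 100 to 1000 CPM. A link between bull level and that change was thus not tested. Of the total variation in log2 CPM, bull accounted for 46.1% with 9 degrees of freedom, time for 20.0% with 1, the library term for 14.2% with 1 and the rest for 19.7% with 8. Per degree of freedom that is 5.13%, 20.0%, 14.2% and 2.46%. The shares were taken in the order bull, library term and time, so each is what the earlier ones left. Part of the library effect in bulls 1, 9 and 10 may thus be counted to bull. The term and the block both lowered the error of a change. The median SE per gene was 0.10 log2 units with both, 0.11 with the library term alone, 0.14 with the block alone and 0.14 with neither. The calls numbered 4699, 4279, 2757 and 2722 in that order, and 4098, 2743 and 2691 of the last 3 sets were shared in direction with the first.

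The control bulls show what the same 20 days did without a change of feed. In the same paired test 0 genes (0%) were called over the interval in edgeR, with 1789 at an unadjusted p under 0.05. DESeq2 called 81 and limma with voom 0. Genes that rose in restricted bulls had a median change of 0.46 log2 units there and of 0.10 in control bulls, where 70.7% of them were higher on day 15, against 52.2% of all genes tested. Genes that fell had medians of -0.39 and -0.08, and 68.0% of them were lower in control bulls, against 47.8% of all genes. These are separate animals and separate fits, so no library is shared.

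The difference between the paired changes of both feeding groups was past the threshold for 1692 genes (13.3%), of which 899 (7.05%) had a more positive and 793 (6.22%) a more negative change in restricted bulls. In the first set the median difference was 0.55 log2 units, with a median change of 0.47 in restricted and -0.06 in control bulls. In the second it was -0.51, with -0.46 and 0.07. Both sets were chosen by this difference, which favours control changes of opposite sign. These medians therefore do not show that the genes moved the other way in control bulls. Genes called on the restricted change alone had control medians of 0.10 (higher) and -0.08 (lower). With total counts the split was 866 to 499, or 63.4% more positive against 53.1%. Without restricted bull 10 the count was 1069, and from the bulls without a library under 12%, 7 restricted and 6 control bulls, it was 610, of which 570 were shared in direction.

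All 4 genes described differed in this test with all bulls. They had been chosen for a large and uniform change in restricted bulls, which is part of the difference tested. That choice favours large differences and small p-values, so these are not independent support. ENSBTAG00000038748 changed by 1.40 ± 0.96 (SE) in control bulls, a difference of 5.82 ± 1.17 with an edgeR adjusted p of 0.00326. On day 15 the level was 65.4 CPM in control bull 10, against 0.55 to 7.76 CPM in the other control bulls. 3 of 10 refed bulls lay above control bull 10, and refed bull 1 lay just below, at 65.3 CPM. CPM was scaled separately in each feeding group, so that count depends on the scaling. ENSBTAG00000026417 changed by 1.63 ± 0.86 in control bulls, a difference of 4.92 ± 1.10 (edgeR adjusted p = 0.00646), and control bull 10 was again the highest, at 14.1 CPM. ENSBTAG00000003786 changed by -0.30 ± 0.26 in control bulls, a difference of -2.70 ± 0.38 (edgeR adjusted p = 8.53e-05). 7 of 10 refed bulls were below the lowest control library of day 15. That library was at 0.321 CPM and refed bull 10 at 0.344 CPM, so this count depends on the scaling as well. ENSBTAG00000004860 changed by -0.76 ± 0.42 in control bulls and fell in 8 of 10 of them, a difference of -2.01 ± 0.47 (edgeR adjusted p = 0.00771). From the bulls without a library under 12%, the adjusted p of the difference was 0.0556, 0.0915 and 0.0739 for ENSBTAG00000038748, ENSBTAG00000026417 and ENSBTAG00000004860, at log2 differences of 5.77, 5.00 and -1.62. It stayed past the threshold for ENSBTAG00000003786.

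**Figure D5:**
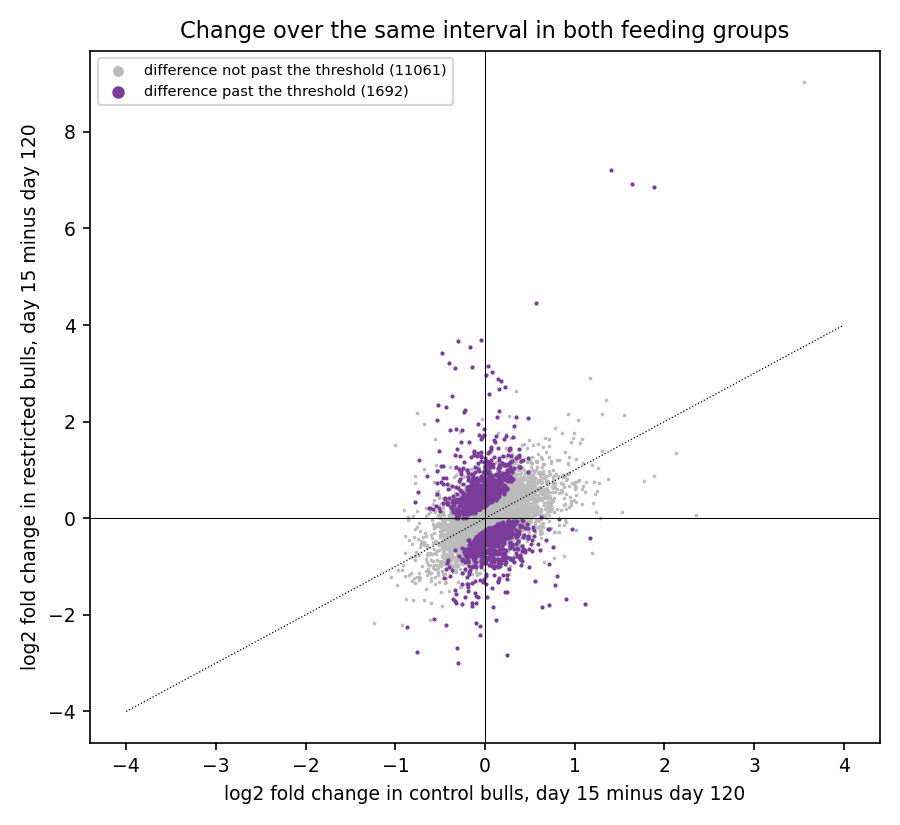
Fitted log2 change from day 120 to day 15 in control bulls (horizontal axis) and restricted bulls (vertical axis), 1 point per gene tested, with the 1692 genes whose changes differed in purple and the dotted line at equal change. Changes reach above 7 log2 units in restricted bulls, and purple points lie above and below the line near a control change of 0.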

How the data were processed

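The authors deposited, for each library, whole-number read counts per gene ID, a layout that HTSeq writes, and a second file of normalised values that was not used here. Per the submitters' processing notes the tools were CASAVA 1.4, TopHat, HTSeq and edgeR and the build was UMD3.1. The sources used here give neither their roles nor the annotation release and strand setting, so overlapping genes cannot be separated. 92 spike-in entries were at 0 in every library. Lines that name no gene stayed out of library sizes and tests, and were 10.0% to 18.7% (outside genes) and 0.584% to 1.40% (ambiguous) of reads.

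12753 genes passed filterByExpr (minimum count 10, total 15) over the 4 groups of 40 libraries. Counts were tested in edgeR 4.0.16 (R 4.3.3) with TMM scaling and robust quasi-likelihood F tests. The design held bull as a block, the term for libraries under 12% and time, in the 20 restricted libraries, the 20 control libraries, or all 40 for the difference. The SE came from the F statistic, and CPM used TMM scaled library sizes, set separately in restricted and control libraries. DESeq2 1.42.0 and limma 3.58.1 were alternatives. Library measures used exact sign-flip tests and correlations used permutation tests in Python 3.11.15 (SciPy 1.17.1). The edgeR fit was tested on simulated data. Reads carry no molecular identifiers, so counting error is the least error of any value.

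The titles repeat the numbers 1 to 10 across times, and library codes hold a later number that is 30 apart in each of the 20 pairs. Growth protocol and titles give 10 bulls per group, while another protocol text gives 20. With the library term removed, deviations from the group means correlated at 0.16 to 0.36 in all 10 restricted pairs (median 0.28), against a median of -0.03 between other numbers. Of the restricted libraries, 10 of 10 of day 120 and 9 of 10 of day 15 correlated best with their own number. In control bulls same-number pairs correlated at 0.11 to 0.43 (median 0.20), and other numbers had a median of -0.02 and reached 0.46, so that 5 of 10 libraries of day 120 and 6 of 10 of day 15 correlated best with their own number. With the term removed every pair of both groups was over 0.1. With the term kept, 7 of 10 restricted and 8 of 10 control pairs were, and the lowest were -0.23 and -0.14. Then 7 of 10 restricted libraries of each day correlated best with their own number, and 4 (day 120) and 2 (day 15) of 10 control libraries. Equal numbers were treated as 1 bull on the titles and library codes, which these correlations bear out only in part, and less so in control bulls. No restricted libraries were alike to within counting noise (smallest chi-square per gene 27.5).

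Genes named were the 2 largest rises and 2 largest falls among called genes averaging 1 CPM or more and with the same direction in 10 of 10 bulls. The rule had been written for genes with a symbol, for 8 per direction and for members of gene lists. Without symbols those lists and a mitochondrial share could not be used. The members, lists and tests were chosen with earlier results of these data known.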

Additional observations from a re-analysis of the deposited data

Results flagged for a closer look

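In 40 groups of 10 values 9 had a value set apart from the rest by Dixon's test. Its chance rate of about 1 in 20 holds for independent groups of normally distributed values. The groups here included CPM without a log, and the same bulls and related genes recur in them. The count of 9 can therefore not be set against that rate. ENSBTAG00000038748 and ENSBTAG00000026417 were both highest in control bull 10 on day 15, at 65.4 CPM against 7.76 in the next bull, and at 14.1 against 1.62 CPM. ENSBTAG00000026417 was also set apart in control bull 9 on day 120, at 0.998 CPM against 0.475. ENSBTAG00000004860 stood apart in restricted bull 10 in restriction (32.7 against 9.15 CPM), in control bull 8 on day 120 (14.7 against 7.43 CPM) and in control bull 4 on day 15 (13.5 against 3.88 CPM). Refed bull 10 had the lowest share of reads outside genes, 10.0% against 13.3% in the next. Bull 8 held 14.0% and 13.7% of its counts at both times in genes called higher in the other bulls, against 6.84% and 9.09% in the next.

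The change over the interval differed between restricted and control bulls for 1692 genes. For those described, which were chosen by their change in restricted bulls, the log2 difference was 5.82, 4.92, -2.70 and -2.01.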

How the results depend on the processing

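The changes of the 4 named genes in restricted bulls kept their direction and their call under all 23 alternatives each. The adjusted p reached at most 0.00784. The number of genes called between the biopsies of restricted bulls was within 1.5 times the reported one under 22 of 24 alternatives. It was 3052 at an adjusted p under 0.01 and 2757 with the replicate block but no library term, and 3741 to 4679 when a bull was left out. Without the replicate block, library term kept, it was 4279. In control bulls the count of 0 became 81 with DESeq2, 3 without the replicate block, 9 from the bulls without a library under 12%, 8 from a fit to all 40 libraries, and 0 to 7 when a bull was left out. The number of genes whose change differed was 716 at an adjusted p under 0.01, 944 without the library term, 610 from the bulls without a library under 12%, and 1069 to 1876 when a bull was left out, the lowest without restricted bull 10. With total counts it split into 866 more positive and 499 more negative. The difference of ENSBTAG00000026417 had an adjusted p of 0.0853 without the replicate block and 0.0791 where library code numbers replaced the term and block. The rise in genes with a count was 239 on average and 302 without bull 10, with 210 to 302 over the bulls left out. The shared direction of a bull left out had a median of 86.0% to 88.6% under 4 alternatives. The cause of these shifts was not tested. Depth limits genes under 1 CPM most.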

Other observations

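The changes within bulls of the 4 genes described were also compared with each other, in 6 relations over 10 restricted bulls. The closest was that of the 2 rising genes, with r = 0.697 (permutation p = 0.0253, adjusted 0.152) and rho = 0.673 (permutation p = 0.0392, adjusted 0.147), and r was 0.404 without the 2 farthest bulls. The rise of ENSBTAG00000038748 and the change of ENSBTAG00000003786 had r = 0.0782 and rho = 0.0909. No relation was past an adjusted p of 0.05.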
